A study of Homo sapiens with 32 samples.

Results

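The measurement described here is how the effect of cannabidiol (CBD) on gene expression changed between 6 h and 24 h of exposure. For each gene it is the difference of differences on the log2(FPKM + 1) scale, the CBD minus vehicle effect at 24 h less the CBD minus vehicle effect at 6 h, called the interaction below. FPKM (fragments per kilobase of transcript, scaled to the mapped fragments of the sample) is a per-length expression level. Every gene of the expression table was a member, and the 12621 of its 22610 entries with a mean of at least 1 FPKM over the series were tested. Of the 32 samples of the series, 16 carry the measurement, in 4 groups of 4 replicates.

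SK-N-BE(2) is an established human neuroblastoma line with amplified MYCN. Cells were plated in 6-well dishes, left to attach overnight and exposed to 20 µM CBD in ethanol or to the vehicle, 0.1% ethanol, and polyadenylated RNA was sequenced at each time. The groups were vehicle for 6 h, CBD for 6 h, vehicle for 24 h and CBD for 24 h, so that each CBD group had a vehicle group of the same time. Samples at 3 h and 12 h entered the fit for the estimate of spread and gave an effect that the interaction does not use. The labels give replicate numbers and do not say whether replicates were grown or plated separately, so p-values measure the spread between these samples, which may be technical.

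The labelled cell type was checked against marker genes. All 10 adrenergic neuroblastoma markers had a mean of at least 1 FPKM, and none of the leukocyte, endothelial and Schwann cell markers did. Of the fibroblast markers, COL1A1, DCN and LUM passed 1 FPKM, and their list summed to 54.3 to 71.2 FPKM over the 16 samples against 3466 to 3974 FPKM for the adrenergic list. Of these, DCN had a negative interaction (-0.28) and LUM a positive one (0.26), while COL1A1 had none called. Of the epithelial markers only EPCAM passed 1 FPKM, at group means of 2.06 FPKM with vehicle and 1.99 FPKM with CBD at 6 h and 3.35 and 4.27 FPKM at 24 h, and it was higher with CBD at 24 h (0.28). Of the markers of the mesenchymal neuroblastoma state, SNAI2, VIM and CD44 passed, and their list summed to 229 to 381 FPKM. SNAI2 (0.48) and VIM (0.23) had positive interactions, with group means of VIM of 206 FPKM with vehicle and 192 FPKM with CBD at 6 h and 290.0 and 317 FPKM at 24 h. What part other cells take in the results was not tested. Read totals were not used here, but the smallest steps in FPKM gave a relative depth of 0.936 to 1.20 among the 16 samples, with group means of 1.05 and 0.98 in vehicle and CBD at the early time and 1.06 and 1.00 at the late time. Between 19449 and 19962 entries were above 0 in each sample. In bulk RNA, fewer cells of a kind and less RNA per cell cannot be told apart.

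A time-matched vehicle matters because a plated culture changes by itself: cells divide, use up glucose and oxygen and condition their medium, and transcripts follow. An effect that differs between 6 h and 24 h can therefore come from a change in the CBD samples, in the vehicle samples or in both. Several of the programs that follow are textbook feedback systems. Metallothioneins bind zinc and are switched on by the zinc-sensing factor MTF1, sterol enzymes are switched on by SREBP factors when cholesterol in the endoplasmic reticulum is low, and ATF4 is translated during the integrated stress response and activates amino acid genes.

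The effect of CBD was far from fixed over time. The interaction was positive for 1370 genes (10.9% of those tested) and negative for 1220 (9.67%) at a limma adjusted p under 0.01, the threshold used throughout. A positive interaction means that CBD relative to vehicle stood higher at 24 h than at 6 h. Most of these changes were small: the median size of a called interaction was 0.24 on the log2 scale, 144 genes reached 0.5 in size (83 positive, 61 negative) and 23 reached 1 (7 positive, 16 negative). At 6 h, 514 genes were higher with CBD (4.07%) and 774 lower (6.13%). At 24 h, 2623 were higher (20.8%) and 2691 lower (21.3%). Of the 1288 genes called at 6 h, 1112 (86.3%) had the same sign of effect at 24 h, and of the 5314 called at 24 h, 3956 (74.4%) had that sign at 6 h. Across the 12621 genes the effects at 6 h and 24 h, which come from different samples read in 1 model, correlated at a Pearson r of 0.15 and a Spearman rho of 0.40. Both take in genes with no called effect, where spread between samples lowers a correlation. Pearson r also gives extreme values much weight, and interactions ran from -9.28 to 6.73. Genes are not independent replicates, so no p is given. CBD and vehicle values did not overlap in 2469 of the genes (19.6%) at 6 h and in 6433 (51%) at 24 h.

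**Figure D1:**
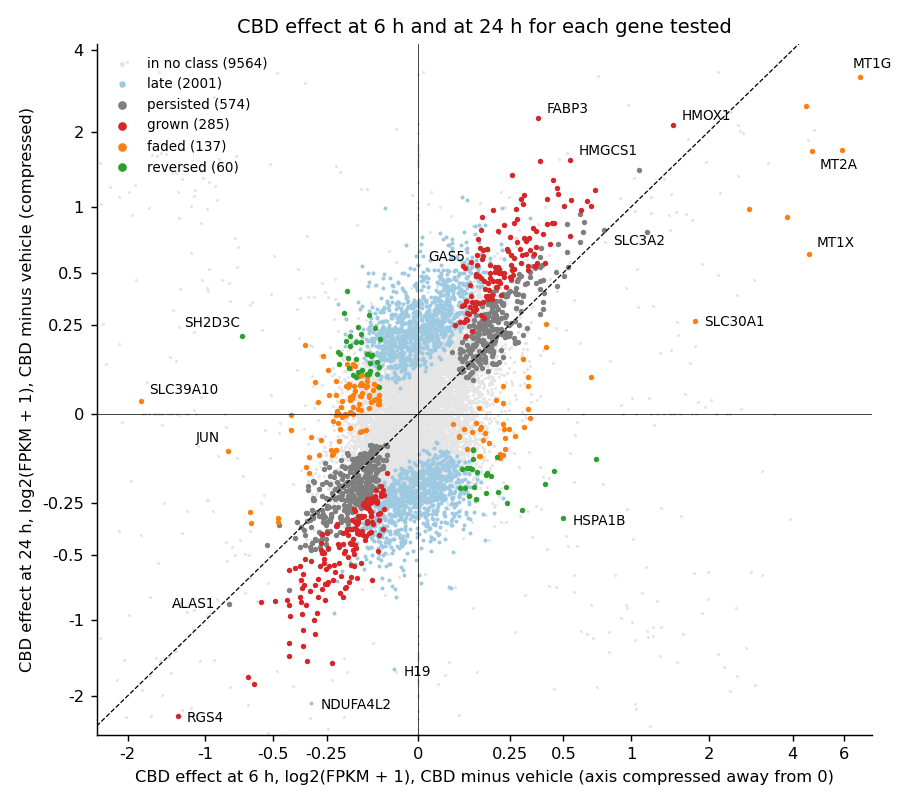
CBD effect at 6 h (x axis) and at 24 h (y axis) on the log2(FPKM + 1) scale for the 12621 genes tested, with both axes compressed away from 0, 40 genes outside the axes, and the dashed line marking equal effects. Late genes lie above and below the centre, and metallothioneins stand alone at the right below the line. Reversed genes lie in the upper left and lower right quadrants, mostly near the centre.

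Genes were sorted by which of the 3 contrasts (6 h, 24 h, interaction) passed the threshold. The class a gene falls in is a description of those contrasts, not a further test. An effect persisted in 574 genes (4.55% of those tested), where both times were called with the same sign and the interaction was not. It grew in 285 genes (2.26%), called at both times with an interaction of the same sign. Late effects, not called at 6 h and called at 24 h with an interaction of the same sign, were the largest class, with 2001 genes (15.9%). An early effect faded in part in 24 genes (0.19%), still called at 24 h, and faded out in 113 (0.895%), no longer called at 24 h. In 60 genes (0.475%) the effect reversed, being called in opposite directions at the 2 times. Of the 1288 genes called at 6 h, 44.6% persisted, 22.1% grew, 10.6% faded, 4.66% reversed and 18% met no class. For a persisting gene the missing call does not show equality: only 12 of the 236 higher and 26 of the 338 lower had a 95% interval of the interaction that stayed within 50% of the 6 h effect on either side.

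The 12 h samples, which no class uses, were read as a separate time point. CBD called 1117 genes higher (8.85%) and 1416 lower (11.2%) at 12 h. Late genes were already moving: 936 of 1056 late higher genes had a positive effect at 12 h and 408 were called, and 880 of 945 late lower genes had a negative effect with 435 called. The grown classes were called in the same direction in 129 of 131 higher and 142 of 154 lower genes. Among reversed genes, the 12 h effect lay between the 6 h and 24 h effects in 25 of 25 that started higher and in 34 of 35 that started lower, with medians of -0.0026 and -0.018. A gene without an effect at 12 h lies between by the definition of this class, so these counts show little beyond medians near 0. At 12 h, 1 of the 25 and 5 of the 35 were called in the 6 h direction, and 1 and 3 in the other. Of genes that faded out after a lower effect, 65 of 80 were still negative at 12 h and 35 were called.

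**Figure D2:**
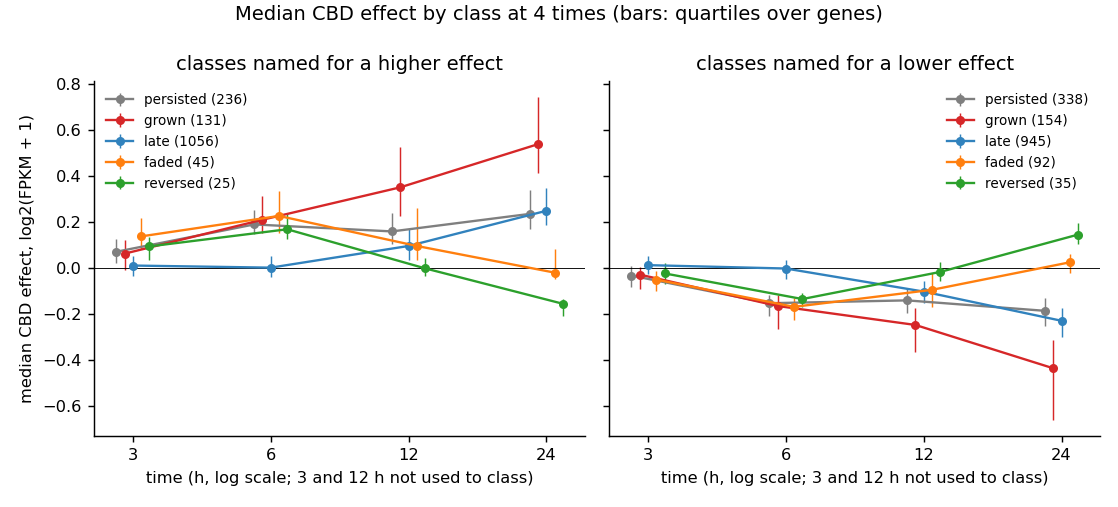
Median CBD effect over the genes of each class at 3, 6, 12 and 24 h (x axis, log scale) on the log2(FPKM + 1) scale (y axis), with bars for the quartiles over genes, for classes with a higher (left) and a lower (right) effect. The 3 h and 12 h samples did not define the classes. At 12 h the medians of the late classes were 0.09 and -0.10, on the way to 0.25 and -0.23 at 24 h.

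Both arms moved over time. In the CBD samples 3654 genes rose from 6 h to 24 h (29%) and 4300 fell (34.1%), and with vehicle 2564 rose (20.3%) and 3703 fell (29.3%). Among the 2590 called interactions, the CBD arm made the larger change in 2247 (86.8%). The most frequent forms were a fall in both arms that was deeper with CBD (757 of 1220 negative interactions), a rise in both arms that was steeper with CBD (597 of 1370 positive interactions), and a rise in CBD alone (516 of 1370). In 343 genes (13.2%) the vehicle arm made the larger change, and in 219 of the 2590 it alone was called. The dashed line in the plot of both arms is equal change.

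**Figure D3:**
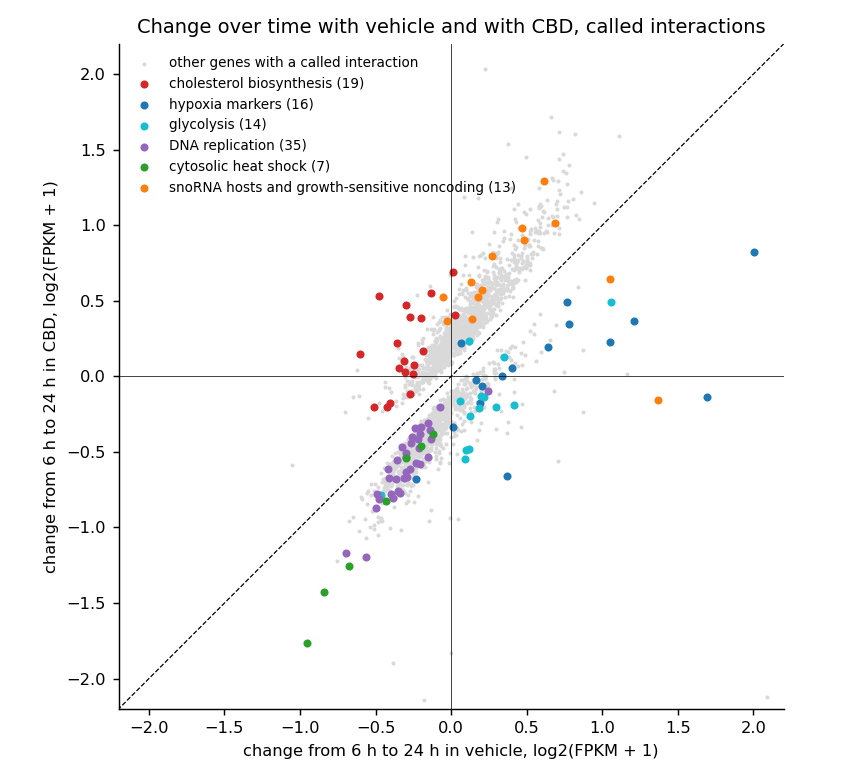
Change from 6 h to 24 h with vehicle (x axis) and with CBD (y axis), both on the log2(FPKM + 1) scale, for the 2590 genes with a called interaction (6 lie outside the axes). Points above the dashed line have a positive interaction. Cholesterol genes lie mostly at a falling vehicle level, hypoxia markers mostly at a rising vehicle level with a smaller or no rise in CBD, and DNA replication and heat shock genes fall in both arms, further with CBD.

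The metal response list had the highest median effect at 6 h of all lists and lost the most of it by 24 h. Of its 11 listed genes, 8 had a mean of at least 1 FPKM, 7 metallothioneins and the zinc exporter SLC30A1, and these 8 were higher with CBD at 6 h and at 24 h and had a negative interaction. The metallothioneins MT1E, MT1F, MT1G, MT1H and MT1M reached that mean only through the CBD samples where they were high, so the count and the median over the 8 are partly fixed by the filter and are given as a description. The list's median effect was 4.51 at 6 h, 3.68 at 12 h and 1.34 at 24 h, beside medians near 0 over all genes (-0.0048 at 6 h and -0.0032 at 24 h). The metallothionein genes lie together on chromosome 16, from MT2A (56642496 to 56643409 on GRCh37) to MT1X (56716382 to 56718108). Short reads can be shared within this family: 18.7% of the 50-base words of MT1X transcripts and 16.4% of those of MT1G also occur in transcripts of other genes, so their individual levels are uncertain. SLC30A1 shared no such word.

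MT1X read 7.59, 7.54, 7.22 and 7.46 FPKM with vehicle at 6 h and 155, 350.1, 198 and 149 FPKM with CBD. After 24 h the values were 4.22, 5.57, 4.97 and 4.21 FPKM with vehicle and 8.24, 8.08, 9.26 and 5.85 FPKM with CBD. The groups did not overlap at either time, but the CBD samples came down from a mean of 213 ± 94.04 (SD, n = 4) to 7.86 ± 1.44 FPKM. Its effect fell from 4.57 to 0.62, an interaction of -3.96 ± 0.26 (SE; limma adjusted p = 1.06e-11). The small 24 h effect of MT1X lost its call, which makes it faded out, without replicates 1, 2 or 3 of CBD or replicates 1, 3 or 4 of vehicle at 24 h.

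MT2A, the metallothionein with the highest mean FPKM, read 11.8, 10.4, 11.99 and 11.5 FPKM with vehicle at 6 h and 245, 524, 310.1 and 251 FPKM with CBD. At 24 h the values were 8.16, 10.3, 7.66 and 6.52 FPKM with vehicle and 25.2, 32.2, 34.6 and 22.6 FPKM with CBD, again without overlap. The effect went from 4.67 to 1.69 (interaction -2.98 ± 0.25, limma adjusted p = 1.12e-09). Replicate 2 of CBD at 6 h was the highest sample for both genes, and without it the interactions of MT1X and MT2A stayed called. Among genes with a mean of at least 5 FPKM, short RNA entries aside, MT1E had the most negative interaction, -4.24, and MT1G had an effect of 6.80 at 6 h and 3.19 at 24 h. Both passed that limit only through CBD samples, with vehicle means of 0.196 and 0.261 FPKM at 6 h. The rank of MT1E is therefore partly fixed by the limit. Its interaction ran from -4.52 to -3.29 over the alternative fits, some of which changed the value added before the logarithm.

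SLC30A1, which moves zinc out of the cytosol, read 6.33, 6.99, 6.25 and 6.25 FPKM with vehicle and 23.2, 26.3, 24.3 and 24.9 FPKM with CBD at 6 h. The later samples read 4.73, 4.66, 4.57 and 4.90 FPKM with vehicle and 5.75, 5.70, 6.05 and 5.99 FPKM with CBD. The CBD samples stood 3.82-fold above vehicle at 6 h and 1.25-fold at 24 h, in separate ranges both times. The interaction was -1.52 ± 0.05 (limma adjusted p = 2.15e-17), and the 12 h effect, 0.93, lay between the other effects.

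SLC39A10, a zinc importer of the plasma membrane, made the opposite movement. It read 14.3, 13.97, 14.8 and 15.4 FPKM with vehicle and 3.31, 3.60, 3.49 and 3.77 FPKM with CBD at 6 h, then 16.8, 17.4, 17.4 and 17.4 FPKM with vehicle and 17.3, 17.5, 17.4 and 18.1 FPKM with CBD at 24 h. The 6 h groups were far apart and the 24 h groups overlapped. The effect went from -1.78 to 0.03 through -0.72 at 12 h, an interaction of 1.81 ± 0.06 (limma adjusted p = 2.15e-17). Of the other 14 zinc transporters tested, SLC39A11 had a positive interaction (0.33) and SLC30A5, SLC30A6 and SLC30A9 had negative ones of -0.15 to -0.21. Of these 3 negative calls 1 was left without replicate 1 of vehicle at 6 h, replicate 3 of CBD at 24 h or replicate 4 of vehicle at 24 h. Over the 15 zinc transporters tested, SLC39A10 included, 13.3% had a positive and 20% a negative interaction, against 10.9% and 9.67% over all genes tested.

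The upstream sequences of 3 of the faded metal genes are shown because their promoters carry the letters of the metal response element core, the binding word of MTF1, and that of SLC39A10 is shown for comparison. Each is the 120 bases before the RefSeq transcript start (GRCh38.p14), written 5′ to 3′ on the gene's strand, with matches to TGCACNC or TGCGCNC on either strand in capitals. The stretches are MT2A at chr16:56608464-56608583 (+), MT1X at chr16:56682350-56682469 (+), SLC30A1 at chr1:211579162-211579281 (-) and SLC39A10 at chr2:195656838-195656957 (+).
MT2A: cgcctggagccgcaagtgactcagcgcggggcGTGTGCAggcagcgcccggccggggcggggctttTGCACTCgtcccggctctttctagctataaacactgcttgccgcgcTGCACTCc
MT1X: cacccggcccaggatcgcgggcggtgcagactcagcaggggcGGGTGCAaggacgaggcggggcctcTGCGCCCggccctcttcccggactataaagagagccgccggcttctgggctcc
SLC30A1: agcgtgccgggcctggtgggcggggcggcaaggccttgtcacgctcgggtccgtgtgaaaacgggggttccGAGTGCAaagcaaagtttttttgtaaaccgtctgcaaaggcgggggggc
SLC39A10: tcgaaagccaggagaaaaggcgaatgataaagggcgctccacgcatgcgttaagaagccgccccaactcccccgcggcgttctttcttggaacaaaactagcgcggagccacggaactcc
In the whole window, from 250 bases before to 50 after the start, MT2A held 8 matches, MT1X 4, SLC30A1 2 and SLC39A10 0, and 29.3% of all 27305 RefSeq promoters held at least 1, against 39.8% of the promoters found for 9032 of the genes tested. A match is a description of letters, not of binding, and no match says only that these letters are not in this window. Genes whose effect grew held matches too, such as INSIG1 with 4 and FABP3 with 2.

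In the heat shock list, which holds cytosolic genes and the mitochondrial chaperonins HSPD1 and HSPE1, 4 genes reversed, HSPE1 among them. Of the 17 tested, 6 rose with CBD at 6 h and 0 fell, against 4.07% higher and 6.13% lower over all genes tested. At 24 h 6 fell and 1 rose, against 21.3% lower and 20.8% higher over all genes tested. A negative interaction was called in 7 (41.2%, against 9.67% over all genes tested), and the list's median effect went from 0.12 to -0.11. HSPA1B, an inducible HSP70, read 21.6, 22.2, 20.6 and 22.2 FPKM with vehicle and 31.5, 29.3, 30.4 and 32.8 FPKM with CBD at 6 h. By 24 h it stood at 10.6, 10.8, 10.3 and 10.9 FPKM with vehicle and 7.91, 8.01, 9.15 and 8.59 FPKM with CBD. The CBD samples were all above vehicle at 6 h and all below at 24 h, and the effect passed from 0.50 through -0.04 at 12 h to -0.31 (interaction -0.81 ± 0.06, limma adjusted p = 3.79e-11). Of the 50-base words of HSPA1B transcripts, 73.6% occur in other genes, mostly its neighbor HSPA1A, so reads of the pair cannot be separated with certainty. HSPA1A went from 0.40 to -0.18.

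DNAJB1, an HSP40 partner of HSP70, shares 2.21% of its words with other genes and did the same. It read 75.9, 75.9, 73.6 and 75.3 FPKM with vehicle and 94.1, 92.9, 93.1 and 90.8 FPKM with CBD at 6 h, and 45.02, 47.6, 47.2 and 46.9 FPKM with vehicle and 38.1, 37.5, 38.3 and 39.3 FPKM with CBD at 24 h, with no overlap and opposite order. Its interaction was -0.58 ± 0.04 (limma adjusted p = 5.22e-11). From 6 h to 24 h DNAJB1 fell in both arms (-0.68 with vehicle and -1.25 with CBD). The mitochondrial chaperonin HSPE1 also reversed (0.13 to -0.13), HSPB1 faded out (0.23 to -0.03), and the constitutive HSPA8 persisted (0.16 and 0.13).

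Several chaperones of the endoplasmic reticulum were lower with CBD at 24 h and not called at 6 h, while 4 genes of the unfolded protein response persisted as higher. In that list of 21, 5 were higher with CBD at 6 h and 0 lower, and at 24 h 5 were higher and 11 lower. Over all genes tested, 4.07% were higher and 6.13% lower at 6 h, and 20.8% and 21.3% at 24 h. The 5 higher at 24 h are thus near the share over all genes. The list had 8 negative interactions (38.1%, against 9.67% over all genes tested) and 1 positive, 2 positive without replicate 4 of CBD at 24 h. HSPA5 (BiP), the main luminal chaperone, read 92.1, 88.7, 90.4 and 90.8 FPKM with vehicle and 99.1, 101, 97.7 and 109 FPKM with CBD at 6 h. At 24 h it read 48.01, 50.9, 50.3 and 51.9 FPKM with vehicle and 37.4, 36.1, 38.7 and 37.04 FPKM with CBD. CBD samples were above vehicle without overlap at 6 h, although that difference missed the threshold (limma adjusted p = 0.0117), and below at 24 h, with an effect of -0.48 already at 12 h. The interaction was -0.58 ± 0.06 (limma adjusted p = 1.21e-07), and 5 of the 28 alternative fits placed HSPA5 among reversed genes. Of these, 1 used only the 16 samples at 6 h and 24 h, and none left out a single sample of those 16. The calcium-binding chaperone CALR was late (0.03 to -0.33), as were the disulfide isomerases PDIA4 and PDIA3, at -0.20 and -0.23 at 24 h. By contrast XBP1 (0.39 and 0.31), HERPUD1 (0.35 and 0.54), DNAJB9 and EDEM1 were higher with CBD at both times and persisted.

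The 60 reversed genes split into 25 that were higher at 6 h and 35 that were lower. VCL (vinculin, a focal adhesion protein) read 10.8, 10.6, 10.3 and 10.6 FPKM with vehicle and 9.40, 8.94, 9.01 and 9.32 FPKM with CBD at 6 h, then 12.6, 12.6, 12.2 and 12.6 FPKM with vehicle and 14.9, 16.1, 15.4 and 15.9 FPKM with CBD at 24 h. The groups changed order without overlap (interaction 0.48 ± 0.03, limma adjusted p = 1.06e-11). SH2D3C, an adaptor protein, had the largest reversal from a lower start, -0.70 to 0.21. From a higher start, CHRNA3, a nicotinic receptor subunit, went from 0.17 to -0.21 and DPF1, a neuronal chromatin factor, from 0.21 to -0.21. The count of reversed genes moved with single libraries: it was 38 without replicate 2 of CBD at 6 h and 39 without replicate 3 of vehicle at 6 h.

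JUN, a component of AP-1, faded out from a lower effect. It read 25.97, 28.1, 26.7 and 26.5 FPKM with vehicle and 13.5, 17.3, 14.5 and 14.6 FPKM with CBD at 6 h, against 35.5, 32.7, 32.6 and 32.3 FPKM with vehicle and 31.5, 28.4, 33.8 and 31.7 FPKM with CBD at 24 h. The groups were apart at 6 h and overlapped at 24 h, and the effect went from -0.81 to -0.08 (interaction 0.72 ± 0.08, limma adjusted p = 9.99e-08). JUND (-0.34 to 0.18), DUSP8 (-0.41 to -0.0029) and CREB5 (-0.30 to 0.07) were also called at 6 h and not at 24 h. For JUND the groups did not overlap at 24 h (limma adjusted p = 0.0185), and it was placed among reversed genes under quantile normalization, with the replicate block and at a threshold of 0.05. In the immediate early list, 4 of 12 had positive interactions (33.3%, against 10.9% over all genes tested) and 0 negative (against 9.67%). Among the 4 were the late genes KLF6 (0.42 at 24 h) and IER3 (0.30), while FOSL2 stayed lower at both times (-0.47 and -0.34). STMN4, a stathmin, and GEM, a small GTPase, faded in part from -0.64 and -0.63 to -0.29 and -0.34. Genes that faded out from a higher effect included the mitochondrial transaminase GPT2 (0.32 to 0.01), GCAT, CYB561 and ATP6V0A2.

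**Figure D4:**
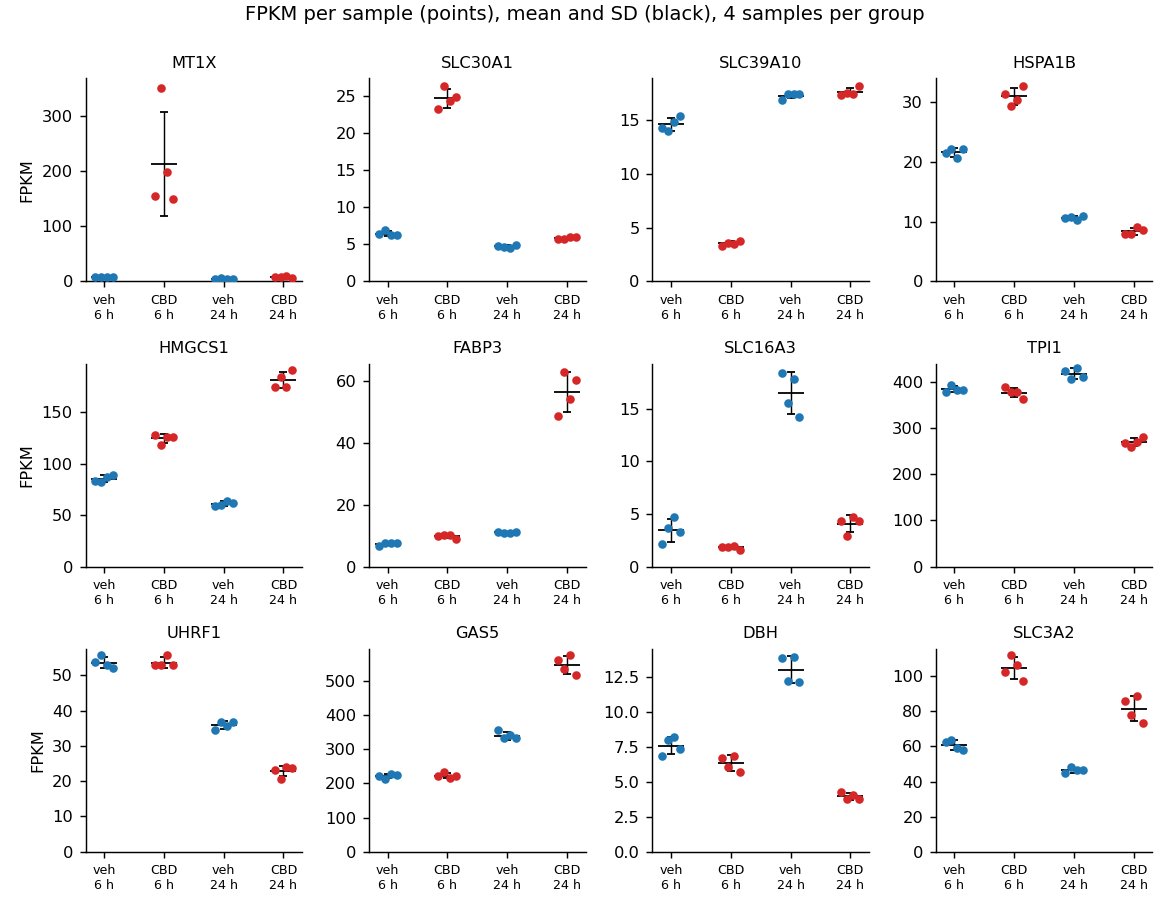
FPKM (y axis, from 0) of 12 genes in each of the 16 samples, as points, with the mean and SD of the 4 samples of a group in black, vehicle in blue and CBD in red. MT1X and SLC30A1 are high only in CBD at 6 h, SLC39A10 is low only there, HSPA1B changes order, HMGCS1 and FABP3 climb with CBD, SLC16A3 and DBH climb with vehicle, and SLC3A2 keeps its distance.

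The effect on cholesterol synthesis genes grew. Of 21 biosynthetic enzymes tested, 15 were higher with CBD at 6 h, 20 at 12 h and 19 at 24 h. The shares over all genes tested were 4.07%, 8.85% and 20.8%. A positive interaction was called in 19 (90.5%, against 10.9% over all genes tested) and a negative one in 0 (against 9.67%). Of those 19, 15 grew and 4 were late, among them FDPS, GGPS1 and LSS, the last being called at 6 h as well without replicate 4 of CBD at 6 h. The median effect was 0.21 at 6 h, 0.63 at 12 h and 0.64 at 24 h. HMGCS1, which makes HMG-CoA, read 83.5, 82.5, 87.05 and 88.9 FPKM with vehicle and 128, 118, 126 and 126 FPKM with CBD at 6 h. After 24 h the values were 58.5, 59.3, 64.1 and 62.2 FPKM with vehicle and 175, 184, 175 and 190.4 FPKM with CBD. The groups were separate at both times and the interaction, 1.02 ± 0.06 (limma adjusted p = 5.1e-13), drew on both arms, with a change of -0.48 in vehicle and 0.54 in CBD.

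FDFT1, squalene synthase, read 179.5, 177, 175 and 182 FPKM with vehicle and 205, 204, 199.9 and 207 FPKM with CBD at 6 h, and 142, 143, 148 and 147 FPKM with vehicle and 278, 290.3, 281 and 285 FPKM with CBD at 24 h. Its CBD samples stood 1.14-fold above vehicle at first and 1.96-fold later (interaction 0.78 ± 0.03, limma adjusted p = 8.7e-16). Vehicle levels of this pathway went down with time: 16 of the 21 enzymes fell in vehicle and 1 rose, a median change of -0.27, whereas in CBD 12 rose and 5 fell, a median of 0.15. Other enzymes with large interactions were ACAT2 (0.75), LSS (0.69), FDPS (0.68), MVD (0.66) and DHCR7 (0.59).

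Most regulators of sterol supply also had positive interactions. Of the 10 tested, 7 had a positive interaction (70%, against 10.9% over all genes tested) and 1 (INSIG2) a negative one (10%, against 9.67%). The INSIG2 interaction was not called without replicates 1 or 2 of vehicle at 6 h or replicate 2 of CBD at 24 h. SREBF2, the transcription factor of the pathway, read 73.4, 79.4, 73.9 and 74.9 FPKM with vehicle and 80.3, 78.7, 80.8 and 72.7 FPKM with CBD at 6 h, which overlap. The later samples read 84.7, 87.5, 85.6 and 84.97 FPKM with vehicle and 116, 123, 119 and 115 FPKM with CBD, which do not (interaction 0.41 ± 0.05, limma adjusted p = 1.14e-06). INSIG1, which holds SREBP in the endoplasmic reticulum, grew from 0.70 to 1.17 and the sterol carrier STARD4 from 0.41 to 0.84. The lysosomal cholesterol exporters NPC1 and NPC2 were late, at 0.29 and 0.55. MYLIP, a ubiquitin ligase, reversed from -0.14 to 0.19. In the small export list, ABCG1 and LPCAT3 were late (0.15 and 0.39) and 4 of 6 genes had no called interaction.

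Fatty acid genes joined late. Of 15 tested, 6 were higher with CBD at 6 h, 13 at 12 h and 15 at 24 h, against 4.07%, 8.85% and 20.8% of all genes tested. Interactions were positive in 13 (86.7%, against 10.9% over all genes tested) and negative in 0 (against 9.67%). The median effect rose from 0.062 to 0.38. FABP3, a cytosolic fatty acid carrier, had the most positive interaction of the ranked genes. It read 6.65, 7.55, 7.45 and 7.74 FPKM with vehicle and 9.85, 10.2, 10.1 and 8.96 FPKM with CBD at 6 h, and 11.2, 10.9, 10.8 and 11.1 FPKM with vehicle and 48.5, 62.7, 53.9 and 60.2 FPKM with CBD at 24 h. That is 1.33-fold and then 5.12-fold above vehicle, without overlap, with 1.34 on the log2 scale at 12 h and an interaction of 1.88 ± 0.09 (limma adjusted p = 1.12e-14).

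ACSS2, which makes acetyl-CoA from acetate, read 5.16, 5.31, 5.05 and 5.15 FPKM with vehicle and 6.36, 6.40, 6.47 and 6.25 FPKM with CBD at 6 h. It read 5.65, 5.27, 5.65 and 5.62 FPKM with vehicle and 15.5, 16.3, 15.6 and 15.7 FPKM with CBD at 24 h. The CBD samples rose by 1.19 and the vehicle change of 0.09 was not called (interaction 1.10 ± 0.05, limma adjusted p = 5.21e-14). FASN, ACACA, ACLY, ELOVL6, FADS1, FADS2 and ACSL3, which build, extend, desaturate and activate fatty acids, had effects between -0.04 and 0.06 at 6 h, none called, and between 0.19 and 0.46 at 24 h, all called. OLMALINC, a noncoding RNA next to the desaturase gene SCD, was late (-0.07 to 0.99), and SCD itself grew from 0.21 to 0.52.

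Among ATF4 targets, persistence was the most frequent class. Of 31 ATF4 targets tested, 21 were higher with CBD at 6 h, 22 at 12 h and 24 at 24 h. The shares over all genes tested were 4.07%, 8.85% and 20.8%. The median effect was 0.29 at 6 h and 0.33 at 24 h. Of the 31, 15 persisted, against 4.55% of all genes tested. SLC3A2, the heavy chain of amino acid exchangers, read 62.6, 63.8, 58.97 and 58.2 FPKM with vehicle and 102, 112, 107 and 97.1 FPKM with CBD at 6 h. By 24 h it stood at 44.9, 48.3, 46.4 and 46.5 FPKM with vehicle and 85.9, 77.9, 88.8 and 73.6 FPKM with CBD. Both arms fell (-0.38 with vehicle and -0.36 with CBD) and the groups stayed apart, with effects of 0.77 and 0.79 and a 95% interval of the interaction from -0.14 to 0.18. ATF4 itself was 0.38 and 0.41 (interval -0.08 to 0.14). SESN2, SLC7A11 (the cystine importer, 1.08 and 1.41) and the glutathione-degrading CHAC1 (1.16 and 0.78) also persisted. PCK2, a mitochondrial carboxykinase, persisted too, but grew without replicate 4 of CBD at 24 h, and CHAC1 faded in part in the fit with the replicate block.

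Other stress genes climbed. DDIT3 (CHOP), a transcription factor of prolonged stress, read 10.99, 9.89, 11.04 and 11.1 FPKM with vehicle and 13.9, 18.4, 12.7 and 15.4 FPKM with CBD at 6 h, then 14.5, 13.7, 15.1 and 14.7 FPKM with vehicle and 41.6, 35.6, 43.5 and 28.5 FPKM with CBD at 24 h. The groups did not overlap, and the effect went from 0.44 at both 6 h and 12 h to 1.29 (interaction 0.84 ± 0.15, limma adjusted p = 9.83e-05). Its 6 h call was lost without replicate 2 of CBD or replicate 2 of vehicle at 6 h. ATF5 (0.22 to 0.99) and TRIB3 (0.33 to 0.90) were called late. The interaction of ATF5 stayed called without replicate 2 of CBD or 3 or 4 of vehicle at 6 h or replicates 2 or 4 of CBD at 24 h, and lost its call without any other sample. That of TRIB3 stayed called without replicate 2 of CBD at 6 h or replicates 2 or 4 of CBD at 24 h and lost its call without any other sample. ASNS, MTHFD2, SLC1A5 and XPOT grew. In the other direction PSAT1, of serine synthesis, and GPT2 had negative interactions (-0.16 and -0.31), and 1 of these 2 calls was left without replicates 2 or 3 of CBD or 3 or 4 of vehicle at 6 h, replicates 2 or 4 of CBD at 24 h, or replicates 2, 3 or 4 of vehicle at 24 h. Among 20 cytosolic aminoacyl-tRNA synthetases, 5 had positive interactions (25%, against 10.9% over all genes tested) and 0 negative (against 9.67%). The largest was that of SARS, from 0.17 to 0.65. ASS1, which makes argininosuccinate in arginine synthesis, stood outside these lists. It read 32.03, 32.4, 31.8 and 31.8 FPKM with vehicle and 43.7, 41.9, 41.8 and 40.01 FPKM with CBD at 6 h, and 43.2, 40.8, 40.5 and 43.2 FPKM with vehicle and 126, 121, 136 and 113 FPKM with CBD at 24 h, which is 1.31-fold and 2.95-fold (interaction 1.16 ± 0.07, limma adjusted p = 1.27e-12).

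More antioxidant targets of NFE2L2 were called higher with CBD at 24 h than at 6 h, which also held over all genes. Of 21 tested, 10 were higher at 6 h and 16 at 24 h, against 4.07% and 20.8% of all genes tested. Interactions were positive in 9 (42.9%, against 10.9% over all genes tested) and negative in 2 (9.52%, against 9.67%). Of the 21, 5 grew, 5 were late, 4 persisted and 1 reversed. HMOX1, which degrades heme, read 1.11, 0.816, 0.844 and 1.04 FPKM with vehicle and 4.23, 4.93, 4.55 and 3.92 FPKM with CBD at 6 h, and 1.07, 1.21, 1.27 and 1.09 FPKM with vehicle and 8.52, 8.42, 9.32 and 7.21 FPKM with CBD at 24 h. Its effect grew from 1.47 to 2.11 (interaction 0.65 ± 0.10, limma adjusted p = 2.36e-05). NQO1 grew from 0.50 to 1.01 and ferritin heavy chain FTH1 from 0.26 to 0.59, while GCLM (0.52 and 0.53) and TXNRD1 persisted and the peroxiredoxin PRDX1 reversed (0.12 to -0.13). The CBD effect on the factor's own transcript NFE2L2 was not called at either time (-0.01 and -0.03), and SOD1 had an interaction of -0.13 that missed the threshold (limma adjusted p = 0.011) and passed it in 6 of the 28 alternative fits. ALAS1, the first enzyme of heme synthesis, read 11.5, 11.3, 10.9 and 11.1 FPKM with vehicle and 6.14, 5.75, 6.33 and 5.89 FPKM with CBD at 6 h. At 24 h it read 10.2, 9.96, 10.4 and 10.2 FPKM with vehicle and 4.997, 5.34, 5.19 and 5.31 FPKM with CBD. It was lower by a like amount at both times (-0.79 and -0.85, interval of the interaction -0.16 to 0.04). Over the 22 heme and iron genes, which include HMOX1 and FTH1, 6 interactions were positive (27.3%, against 10.9% over all genes tested). The number of negative ones was 1 (4.55%, against 9.67%). That count was 2 without replicate 4 of CBD or 1 or 3 of vehicle at 6 h or replicate 2 of CBD at 24 h.

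Most hypoxia markers were lower with CBD at 6 h and further below vehicle at 24 h, and vehicle levels of hypoxia and glycolytic genes mostly rose between these times. Of 20 hypoxia markers tested, 12 were lower with CBD at 6 h and 17 at 24 h, against 6.13% and 21.3% of all genes tested. A negative interaction was called in 15 (75%, against 9.67% over all genes tested) and a positive one in 1 (ERO1A, 5% against 10.9%). The median effect went from -0.24 to -0.57. In vehicle 17 of the 20 rose from 6 h to 24 h and 1 fell, a median of 0.39, and in CBD 11 rose and 4 fell, a median of 0.21. NDUFA4L2, a mitochondrial protein induced by HIF, read 1.08, 1.95, 2.59 and 1.91 FPKM with vehicle and 2.04, 1.01, 1.18 and 1.03 FPKM with CBD at 6 h, which overlap. After 24 h the values were 9.11, 5.29, 11.3 and 7.94 FPKM with vehicle and 0.908, 1.07, 1.26 and 1.08 FPKM with CBD. The vehicle samples rose by 1.69, and the value for the CBD samples, -0.14, was not called (interaction -1.83 ± 0.23, limma adjusted p = 1.11e-06).

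SLC16A3, the lactate exporter MCT4, read 2.11, 3.71, 4.69 and 3.26 FPKM with vehicle and 1.89, 1.86, 1.98 and 1.61 FPKM with CBD at 6 h. The later samples read 18.4, 15.6, 17.9 and 14.2 FPKM with vehicle and 4.32, 2.87, 4.76 and 4.32 FPKM with CBD. Both arms rose, by 2.01 and 0.82, and the CBD samples ended far below vehicle (interaction -1.18 ± 0.18, limma adjusted p = 1.18e-05). STC1 (-0.66 to -1.69), NDRG1 (-0.29 to -1.14), BNIP3 (-0.41 to -1.24), AK4, P4HA1 and ADM grew as lower genes. What sets the vehicle samples of the 2 times apart was not tested.

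Of 19 glycolytic genes, 5 were lower with CBD at 6 h and 16 at 24 h, against 6.13% and 21.3% of all genes tested. Interactions were negative in 13 (68.4%, against 9.67% over all genes tested) and positive in 1 (5.26%, against 10.9%), PFKM at 0.11. The PFKM call held without replicate 1 of CBD or 4 of vehicle at 6 h, or replicate 2 of CBD or 3 of vehicle at 24 h. It was lost without any other 1 sample. In vehicle 14 of the 19 rose from 6 h to 24 h and 1 fell (median 0.19), and in CBD 7 rose and 11 fell (median -0.13). TPI1, triosephosphate isomerase, read 378, 393, 382 and 382 FPKM with vehicle and 387, 377, 378 and 363 FPKM with CBD at 6 h, which overlap, and 423, 405, 430.5 and 410.0 FPKM with vehicle and 268, 259, 269.6 and 280.1 FPKM with CBD at 24 h, which do not. Here the CBD arm made the larger change, -0.48 against 0.12 (interaction -0.60 ± 0.04, limma adjusted p = 1.91e-12). PGAM1 (-0.64), HK2 (-0.60), the glucose transporter SLC2A1 (-0.59), PDK1 (-0.56) and PGK1 (-0.50) had negative interactions too. TXNIP, an arrestin-fold protein that limits glucose uptake, was lower at both times and grew (-0.57 to -0.84), whereas its relative ARRDC3 was higher and grew (0.26 to 0.52). They were the called interactions among the 5 glucose-sensing arrestins tested, 1 negative and 1 positive (20% each, against 9.67% and 10.9% over all genes tested).

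The imprinted noncoding RNA H19 had the same shape as NDUFA4L2. It read 46.8, 60.2, 66.8 and 53.1 FPKM with vehicle and 58.0, 51.1, 56.9 and 51.5 FPKM with CBD at 6 h, and 174, 140.1, 152 and 126 FPKM with vehicle and 48.1, 49.8, 47.03 and 49.7 FPKM with CBD at 24 h. Vehicle samples rose by 1.37, and the value for the CBD samples, -0.15, was not called (interaction -1.52 ± 0.12, limma adjusted p = 1.99e-10). DLK1, imprinted and a Notch-like ligand, was late and lower (0.07 to -0.72) with its vehicle level rising by 0.46, as were MEG3 (-0.60 at 24 h), CLU and AQP1. In vehicle at 6 h, replicate 1 was the lowest and replicate 3 the highest sample for NDUFA4L2, SLC16A3 and H19. The same held for DBH and RGS4, described below, whose vehicle levels also rose.

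DNA replication genes were nearly flat at 6 h and lower at 24 h. Of 46 tested, 5 were lower and 1 higher with CBD at 6 h, 26 were lower at 12 h and 39 at 24 h. Over all genes tested, 6.13% were lower and 4.07% higher at 6 h, 11.2% lower at 12 h and 21.3% at 24 h. A negative interaction was called in 35 (76.1%, against 9.67% over all genes tested) and a positive one in 0 (against 10.9%). Of the 35, 30 were late. In vehicle 39 of the 46 fell from 6 h to 24 h and in CBD 43, with median changes of -0.27 and -0.49. UHRF1, which couples replication to DNA methylation, read 53.7, 55.7, 53.1 and 51.98 FPKM with vehicle and 52.9, 53.005, 55.8 and 52.9 FPKM with CBD at 6 h, which overlap. By 24 h it stood at 34.5, 36.8, 35.7 and 36.9 FPKM with vehicle and 23.3, 20.7, 23.98 and 23.6 FPKM with CBD (interaction -0.63 ± 0.05, limma adjusted p = 4.32e-10). RRM2 (-0.47), FEN1 (-0.43), TK1 (-0.42), GINS2 (-0.41), PCNA (-0.36) and the helicase subunits MCM2 to MCM7 (-0.37 to -0.18) had negative interactions too, and MCM5 reversed.

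Called interactions of mitotic genes were no more frequent than over all genes. Of 44 tested, 4 had positive interactions (9.09%, against 10.9% over all genes tested) and 1 (BIRC5, -0.23) a negative one (2.27%, against 9.67%). At 6 h 17 were lower with CBD and at 24 h 15, against 6.13% and 21.3% of all genes tested. The median effect was -0.14 at 6 h and -0.072 at 24 h. Called or not, the interaction was above 0 in 34 of the 44, against 6443 of the 12621 genes tested. Its median was 0.094 over the list and 0.0042 over all genes tested. PLK1 (-0.23 to -0.01) and AURKA (-0.22 to -0.08) faded, and NEK2 (0.30) and CDC20 (0.23) had positive interactions. In the list of growth arrest and p53 targets, 3 of 21 interactions were positive (14.3%) and 6 negative (28.6%). BBC3 (PUMA), a pro-apoptotic BH3 protein, was late and higher at a low level (1.22 FPKM with vehicle and 2.57 FPKM with CBD at 24 h, interaction 0.70, limma adjusted p = 0.000255), TP53INP1 was lower and grew, and CCND1 went from -0.15 to -0.46. The BCL2 family list, which shares BBC3 and PMAIP1, had 2 positive and 2 negative interactions of 16, or 12.5% each. These are near the shares over all genes tested, 10.9% and 9.67%. Its survival factor MCL1 was late and lower (-0.23).

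Catecholamine and adrenergic identity genes moved in both directions. DBH, which converts dopamine to noradrenaline, read 6.84, 7.95, 8.20 and 7.34 FPKM with vehicle and 6.72, 6.03, 6.84 and 5.68 FPKM with CBD at 6 h, whose ranges meet. At 24 h it read 13.8, 12.2, 13.9 and 12.1 FPKM with vehicle and 4.23, 3.74, 4.07 and 3.78 FPKM with CBD, far apart (interaction -1.27 ± 0.09, limma adjusted p = 2.13e-11). Its vehicle level rose by 0.71 and its CBD level fell (-0.56), and without replicates 2 or 4 of CBD or 2, 3 or 4 of vehicle at 6 h the small 6 h effect lost its call. The granule protein CHGA grew as a lower gene (-0.29 to -0.93) and the noradrenaline transporter SLC6A2 was late (-0.46), while the vesicular transporter SLC18A2 was late and higher (0.35). Of 19 genes in that list, 3 interactions were positive (15.8%) and 5 negative (26.3%), against 10.9% and 9.67% over all genes tested. Of 19 adrenergic neuroblastoma factors, 8 interactions were negative (42.1%) and 2 positive (10.5%). Of the 8, 5 were left without replicate 2 of CBD at 6 h, replicates 3 or 4 of vehicle at 6 h, replicate 4 of CBD at 24 h, or replicates 2 or 3 of vehicle at 24 h. Of the 2, 1 was left without replicates 2 or 4 of CBD or 1, 2 or 4 of vehicle at 6 h, replicate 2 of CBD at 24 h or replicates 1 or 3 of vehicle at 24 h. INSM2, ISL1 and the receptor kinase ALK (-0.39 at 24 h) were lower, and MYCN was higher and grew from 0.36 to 0.54. In the neuronal cytoskeleton list 4 interactions were positive (17.4%) and 5 negative (21.7%) of 23. The stathmins STMN1 and STMN3 were late and lower (-0.37 and -0.40).

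RGS4, which shortens G protein signals, had the most negative effect at 24 h of the genes named here. It read 67.8, 87.2, 101 and 85.1 FPKM with vehicle and 34.3, 34.3, 33.8 and 33.6 FPKM with CBD at 6 h, and 168, 148, 168 and 139 FPKM with vehicle and 30.02, 26.99, 28.9 and 29.2 FPKM with CBD at 24 h. The vehicle samples rose by 0.87, and the value for the CBD samples, -0.23, was not called (interaction -1.10 ± 0.11, limma adjusted p = 4.54e-08). The ERK feedback list it was placed in had 3 positive (21.4%) and 2 negative (14.3%) interactions of 14, against 10.9% and 9.67% over all genes tested. ETV4, ETV5 and SPRY4, which ERK signalling induces, were higher and grew (to 1.08, 0.97 and 1.01), and the phosphatase DUSP6 persisted (0.60 and 0.70). ABCA12, a lipid transporter, was lower and grew (-0.41 to -1.40, with -0.94 from 6 h to 24 h in CBD and 0.04, not called, in vehicle).

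Many noncoding genes were late and higher, in a list that mixes host genes of small nucleolar RNAs with others such as H19, MEG3 and MALAT1. Of 23 tested, 11 had positive interactions (47.8%, against 10.9% over all genes tested) and 2 (H19 and MEG3) negative ones. The 13 late genes of the list include H19 and MEG3, which were lower. The median effect rose from 0.029 to 0.30. GAS5, which accumulates when translation or growth slows, read 223, 213, 229 and 224 FPKM with vehicle and 221, 233, 215 and 222 FPKM with CBD at 6 h, which overlap. After 24 h the values were 356, 332, 340.2 and 332 FPKM with vehicle and 562, 534, 576 and 517 FPKM with CBD, which do not. Both arms rose, by 0.61 and 1.29 (interaction 0.68 ± 0.05, limma adjusted p = 5.76e-10). SNHG12 (0.57), SNHG7 (0.51), SNHG8 (0.50), ZFAS1 (0.42) and MALAT1 (0.52) moved the same way.

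Counts in the large housekeeping lists are read beside the shares over all genes tested, 10.9% with a positive and 9.67% with a negative interaction. Of 78 cytosolic ribosomal protein genes, 5 interactions were positive (6.41%) and 0 negative, a count that was 3 without replicate 3 of CBD or replicates 1 or 4 of vehicle at 6 h, or without replicates 2 or 3 of CBD or 2 of vehicle at 24 h, and 8 without replicate 1 of CBD at 24 h. Mitochondrial ribosomal proteins had 3 positive and 12 negative (15.6%) of 77, and respiratory chain subunits 1 positive and 10 negative (13.3%) of 75, the former 0 without replicates 1, 2 or 3 of CBD or 2 or 4 of vehicle at 6 h, or 3 or 4 of CBD or 1 or 3 of vehicle at 24 h. The proteasome had 0 positive and 5 negative (14.3%) of 35. That count was 10 without replicate 1 of vehicle at 24 h and 3 without replicates 1 or 2 of CBD at 6 h, 2, 3 or 4 of vehicle at 6 h, or 3 or 4 of vehicle at 24 h. Lysosomal genes had 8 positive (18.6%) and 3 negative of 43, with 4 positive without replicate 4 of CBD at 6 h and 5 without replicate 2 of vehicle at 6 h or replicate 3 of CBD at 24 h, and 5 negative without replicate 1 of vehicle at 24 h. Among them, the lysosomal lipase LIPA and the cathepsin CTSF were late and higher (0.36 and 0.43). Of 26 autophagy genes, 5 interactions were positive (19.2%) and 1 negative (2 without replicate 4 of CBD at 6 h). The autophagy receptor OPTN and GABARAPL1, which tags autophagosomes, stood higher with CBD at 24 h (0.31 and 0.51).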

How the data were processed

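Per the paper's methods and the labels, the authors trimmed single 50-base reads with Trimmomatic (0.36), checked them with FastQC, aligned them to hg19 with TopHat and made FPKM values per gene and sample with Cufflinks. The submitters' processing notes list TopHat2 2.2.1 and Cuffdiff. The deposited FPKM table was used as it stands. The second table, the authors' log2 fold changes and q-values per time, was not used. The number of sample columns without a sample was 0.

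Values were log2(FPKM + 1), which understates changes of low genes. Genes averaging 1 FPKM or more across all 32 samples entered 1 limma model (limma 3.58.1, R 4.3.3) with 8 group means and eBayes with an intensity trend, tested on simulated data first. Each contrast was two-sided with Benjamini-Hochberg adjustment over 12621 genes and a threshold of 0.01. The interaction shares its samples with both time effects, so no correlation between them is given. FPKM keeps no read totals, so depth is relative, from the steps of low values, and short reads shared by gene families cannot be resolved.

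Named genes were the 10 most positive and 10 most negative called interactions with a mean FPKM of at least 5 and no short RNA entry, the 5 leading genes of each class and direction, the 3 largest interactions of each list and genes the study discusses, with further members given as examples. Members and lists were chosen with earlier results of these data known. Alternatives changed the value added, the filter, the scaling, the samples, the replicate block, the variance model, the threshold and relative depth. Promoters are from RefSeq (GRCh38.p14), gene positions from the GRCh37 annotation. RefSeq promoters matched 9032 of the 12621 genes, under 80%, so a comparison of motif shares between classes is void and is not given. Some genes are not reported here.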

Additional observations from a re-analysis of the deposited data

Results flagged for a closer look

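In 9 of the 112 groups of 4 samples checked, 1 sample lay further from the other 3 than Dixon's 95% limit, and chance flags about 1 in 20 groups. SLC30A1 read 6.99 FPKM in replicate 2 of vehicle at 6 h, against 6.25 to 6.33 in the others. SLC39A10 was lowest in replicate 1 of vehicle at 24 h, 16.8 FPKM. ACSS2 was lowest in replicate 2 of vehicle at 24 h, 5.27 FPKM. NDUFA4L2 was highest in replicate 1 of CBD at 6 h, 2.04 FPKM against 1.01 to 1.18. UHRF1 was highest in replicate 3 of CBD at 6 h, 55.8 FPKM. DDIT3 was lowest in replicate 2 of vehicle at 6 h, 9.89 FPKM. JUN was highest in replicate 1 of vehicle at 24 h, 35.5 FPKM. VCL was lowest in replicate 3 of vehicle at 24 h, 12.2 FPKM. The relative depth of replicate 2 of CBD at 6 h was 1.07, against 0.943 to 0.956 in the other samples of that group, and the same sample was the highest for MT1X and MT2A. The CBD effects at the 2 times differed by the interaction itself in 1370 genes with a positive and 1220 with a negative value, and 60 genes had called effects of opposite sign.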

How the results depend on the processing

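Besides leaving out each of the 16 samples, 12 other settings were tried. The threshold of 0.05 in place of 0.01 was the one of these 12 that moved a total by over 1.5 times: it gave 2132 positive and 1910 negative interactions (4042 in all), 2434 effects at 6 h, 179 reversed, 563 grown, 973 persisted and 308 faded genes. Under the other 11 settings, positive interactions numbered 963 to 1558 and negative ones 1055 to 1404. The share of positive interactions was 52.9% as reported and ran from 47.2% (median-ratio scaling) to 56.6% (no filter on low FPKM). Without single samples there were 2207 to 2685 interactions and 38 to 83 reversed genes, with 38 without replicate 2 of CBD at 6 h and 39 without replicate 3 of vehicle at 6 h. Same-numbered samples of the 4 groups at 6 h and 24 h did not deviate together over genes (0 of 24 pairs correlated over 0.1, from -0.13 to 0.083). The numbers were not read as pairs. Relative depth did follow the number: replicate 2 was highest with CBD at 3, 6, 12 and 24 h (1.04, 1.07, 1.01 and 1.07). With vehicle, replicate 3 was highest (1.07, level with replicate 4, then 1.11, 1.01 and 1.20). Whether same-numbered samples were handled together was not tested. With the replicate block there were 1558 positive and 1371 negative interactions and 85 reversed genes, against 1370, 1220 and 60 as reported. Effects called at 6 h numbered 1570, against 1288. All these counts were higher with the block, and within 1.5 times the reported ones. Of the 123 named genes with a called interaction, 10 lost the call in some setting and 0 changed sign. The sign changed in 4 named genes without a called interaction. The values for SYT11 were -0.0023 with 5 added before the logarithm, -0.010 with median-ratio scaling, -0.0012 with relative depth as a term, and -0.013 to 0.019 without single samples. NFE2L2 had 0.0044 with quantile normalization and -0.039 to 0.0029 without single samples, SLC3A2 had -0.020 to 0.070, and RMRP had -1.66 to 0.74, positive without replicate 1 of vehicle at 24 h. The medians of the p53, BCL2, catecholamine and neuronal cytoskeleton lists changed sign in some settings. Read totals were not used here, so no counting interval could be set beside an FPKM value.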

Other observations

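Some genes outside the lists and ranks moved with the described groups, and they were picked after their values were seen. IGF2, a growth factor imprinted beside H19, was near the 1 FPKM limit (mean 1.24 FPKM) and its effect went from -0.33 at 6 h to -1.47 at 24 h. Its vehicle level rose by 1.16 between these times and the value in CBD, 0.02, was not called, as for H19 (limma adjusted p of the interaction = 2.06e-09). CSRP1, a LIM protein of the actin cytoskeleton, went from 0.71 at 6 h through 0.48 at 12 h to -0.10 at 24 h, with a called effect at each time (limma adjusted p of the interaction = 9.34e-14). GSDMB, a gasdermin at a mean of 1.94 FPKM, took the opposite course from -0.18 to 0.40. FAM222A-AS1, a noncoding RNA, was late and higher (0.10 to 1.10).

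TFRC, which imports transferrin-bound iron, was lower with CBD at 6 h (-0.47), 12 h (-0.65) and 24 h (-0.31), and the iron storage chain FTH1 was higher at those times (0.26, 0.29 and 0.59). The interaction of TFRC, 0.16, was not called without replicate 4 of vehicle at 6 h, replicate 1 of CBD at 24 h, or replicates 1 or 2 of vehicle at 24 h.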
